A study of Rattus norvegicus with 24 samples.

Results

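The genes described here are 10 transcription factors of the heart: Prdm16, the T-box factors Tbx3, Tbx5 and Tbx20, the GATA factors Gata4 and Gata6, Nkx2-5, the MADS-box factors Mef2a and Mef2c, and Hand2. They are 10 of 22037 genes with a transcript cluster, the probe group that the array reads out for a gene, that carries a single gene symbol, and all 10 were among the 16031 genes bright enough to be tested. Each of the 10 had exactly 1 such cluster. Prdm16 and Tbx3 were chosen by their measured log2 levels: Prdm16 had been seen to be lower with metformin on every day, and Tbx3 to be higher on day 1. The differences between arms that led to these choices are given as a description, with no test. The other 8 are regulators of heart muscle that stand beside them.

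The study followed the rat heart under metformin, a biguanide used against type 2 diabetes, given by mouth at a high dose. Male RccHan Wistar rats, aged 7 to 8 weeks when assigned, received metformin at 800 mg/kg by gavage on consecutive days, with hearts taken on days 1, 3 and 14, and control rats received the vehicle of ethanol, Kolliphor HS 15 and tap water. Each group was designed with 5 animals and 4 of them are analysed here, so that 12 metformin hearts stand against 12 control hearts. RNA from the apex of the left ventricle was measured on 24 one-colour arrays, 1 per heart. Controls and metformin rats of a day were killed after the same number of days.

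Heart muscle is specified and maintained by a small set of DNA-binding proteins that act together on shared enhancers. GATA, T-box, Nkx2-5, MEF2 and HAND proteins bind side by side near genes of the contractile apparatus and of conduction, and several of them raise one another's transcription. Tbx3 is a repressor: in the mouse it holds back the working-muscle programme in the sinus node and the atrioventricular conduction system. Prdm16 is a zinc-finger coregulator best known for steering cells towards brown fat, and in the mouse heart it is needed for the growth and compaction of the ventricular wall.

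The promoters of 2 members are shown because Prdm16 was the member with the largest difference between arms in the mean over days and Mef2a the tested member with the smallest p. Both are from RefSeq on build GRCr8, with 250 bases before and 50 bases after the gene start, written along the strand of the gene. The Prdm16 promoter lies at chr5:170485755-170486054 on the minus strand. Its capitals mark the NKX letters AAGTG at base 59 and the T-box letters AGGTGT at base 215, counted from the first base printed. The Mef2a promoter lies at chr1:130392113-130392412 on the minus strand, and its capitals mark a MEF2 box at base 211.
Prdm16 promoter: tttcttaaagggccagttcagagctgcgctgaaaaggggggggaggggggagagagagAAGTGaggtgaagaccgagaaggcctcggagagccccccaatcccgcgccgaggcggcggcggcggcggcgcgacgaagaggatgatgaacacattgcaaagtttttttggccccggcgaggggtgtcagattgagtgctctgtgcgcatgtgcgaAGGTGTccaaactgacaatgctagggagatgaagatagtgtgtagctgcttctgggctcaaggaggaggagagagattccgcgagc
Mef2a promoter: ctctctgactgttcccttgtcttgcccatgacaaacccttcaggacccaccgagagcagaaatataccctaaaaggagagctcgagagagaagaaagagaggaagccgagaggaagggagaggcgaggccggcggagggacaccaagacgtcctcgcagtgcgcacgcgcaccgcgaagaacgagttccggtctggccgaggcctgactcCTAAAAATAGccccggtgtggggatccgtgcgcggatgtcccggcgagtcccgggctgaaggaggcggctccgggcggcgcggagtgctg

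Promoters of 7 of the 10 members matched by symbol (Prdm16, Tbx5, Tbx20, Gata6, Nkx2-5, Mef2a and Hand2) in a table of 33469 promoters of 300 bases. Both strands were searched for 5 motifs, and none of the matches in the printed promoters overlaps another. The MEF2 box was found in 1 of the 7, that of Mef2a, and in 0.565% of all promoters. The T-box letters AGGTGT were found in 2 of the 7 (Prdm16 and Gata6) and in 13.6% of all promoters. The GATA letters AGATAA were found in Hand2 and in 11.6% of all promoters, the HAND letters CATCTG in Tbx5 and Hand2 and in 16.6% of all, and the NKX letters AAGTG in Prdm16 and Hand2 and in 46.2% of all. Only the named letters and the MEF2 box were searched, so a promoter without a match can hold other forms of these sites. A match is a run of letters in this window and not a measured binding site.

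All values that follow are log2 of the deposited array intensity, and a difference is the metformin mean minus the control mean on that scale. Tests are limma's, fitted to all 24 arrays with 1 mean per group, with Benjamini-Hochberg adjustment over the 16031 genes, and calls were made where the adjusted p was under 0.05. The labels call the samples biological replicates, so the p-values measure the spread between these hearts. In RNA from whole tissue, fewer cells of a type and less RNA per cell cannot be told apart.

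Across the arrays the log2 medians ran from 4.68 to 4.95 and correlations between arrays from 0.984 to 0.992. The highest value on every array lay between 999433 and 999974, above what such a scanner records, so folds may be stretched against folds in RNA. Ventricular identity was checked first: Myl2, the ventricular myosin light chain, averaged 15.4 and the troponin Tnnt2 17.6, while the progenitor factor Isl1 lay above the array median on 0 of 24 arrays. The atrial genes Myl7 (mean 5.31), Sln (7.22) and Myl4 (6.11) lay above that median on 24 of 24 arrays. So did the pacemaker channel Hcn4 (7.11), and the nodal factor Shox2 (5.08) did on 22. Sln, Myl4 and Hcn4 were thus measured in the samples too. Myl7 and Shox2 lay close to the array medians, which are taken over all clusters, so a signal above background is not shown for them. The mean level of 9 tested cardiomyocyte markers ran from 17.67 to 17.73 in metformin hearts and from 17.68 to 17.74 in control hearts, with 0 of 9 called. It averaged slightly lower with metformin on days 1, 3 and 14 (17.69 against 17.71, 17.70 against 17.71 and 17.70 against 17.72). Within groups its SD was only 0.005 to 0.023. Whether values this high on the scale can show a change in muscle cell content was not tested. Control replicate 4 of day 1 stood apart in skeletal muscle markers (a mean of 8.92, with the remaining day 1 controls at 7.41 to 7.48). Control replicate 2 of day 3 stood apart from the other day 3 controls in erythroid markers (13.58, against 11.73 to 11.91). It was not alone among all controls, since those of day 1 ran from 12.28 to 13.40 in these markers. Calls that were lost without both hearts that stood apart are named below.

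Prdm16 was lower with metformin on each day, and this is the pattern for which it was chosen. On day 1 it stood at 7.05, 6.92, 7.19 and 6.89 in the 4 metformin hearts, against 7.72, 7.63, 7.34 and 7.35 in the 4 control hearts. On day 3 the metformin hearts had 6.93, 6.99, 7.05 and 6.75 and the control hearts 7.15, 7.49, 7.14 and 7.39. On day 14 the values were 7.10, 7.19, 7.04 and 6.72 with metformin and 7.46, 7.64, 7.34 and 7.36 in controls. The arms did not overlap on any of the 3 days, a pattern that 0.168% of all tested genes showed in this direction. The differences were -0.50 on day 1, -0.36 on day 3 and -0.44 on day 14, each with a standard error (SE) of 0.11. Their mean over days was -0.43 (SE 0.07), or 1.35-fold lower.

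Set over all days, Prdm16 averaged 6.99 ± 0.15 in metformin hearts and 7.42 ± 0.18 in control hearts (SD, n = 12 each). All 12 metformin hearts lay below the control median, and 10 of 12 lay below every control heart. For such counts over 12 hearts, here and for the genes below, the share among all tested genes was not computed. No comparison of days within an arm called Prdm16: the control hearts of day 3 differed from those of day 1 by -0.22 and the metformin hearts of day 14 from those of day 1 by 0.00. The values compared are the same ones on which the choice was made. The difference between arms over days ran from -0.48 to -0.40 over all alternative settings and all single hearts left out.

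Tbx3, the repressor of the working-muscle programme in conduction tissue, had the opposite sign. On day 1 it stood at 6.20, 6.44, 6.50 and 6.50 in metformin hearts, against 5.97, 6.09, 5.81 and 5.91 in control hearts. Every metformin heart was above every control heart on that day, for which the gene was chosen, and 1.76% of all tested genes showed the same on day 1. On day 3 the values were 6.16, 6.41, 5.96 and 6.40 with metformin and 6.12, 5.78, 6.09 and 5.99 in controls. On day 14 they were 6.04, 6.18, 6.17 and 6.28 with metformin and 6.13, 5.98, 5.89 and 5.999 in controls. The arms overlapped on both later days.

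The Tbx3 differences were 0.46 on day 1, 0.24 on day 3 and 0.17 on day 14, each with an SE of 0.10. The later days, which the choice did not use, gave limma adjusted p values of 0.358 on day 3 and 0.524 on day 14, so neither was called. The mean over days, which includes the day 1 values used for the choice, was 0.29 (SE 0.06), or 1.22-fold higher. Over all days 10 of 12 metformin hearts lay above every control heart, a count that includes day 1 too. Both are a description, with no test. Over all settings and single hearts left out the mean over days ran from 0.24 to 0.32. Tbx3 averaged 6.27 ± 0.18 in metformin hearts and 5.98 ± 0.12 in control hearts (SD, n = 12 each).

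**Figure D1:**
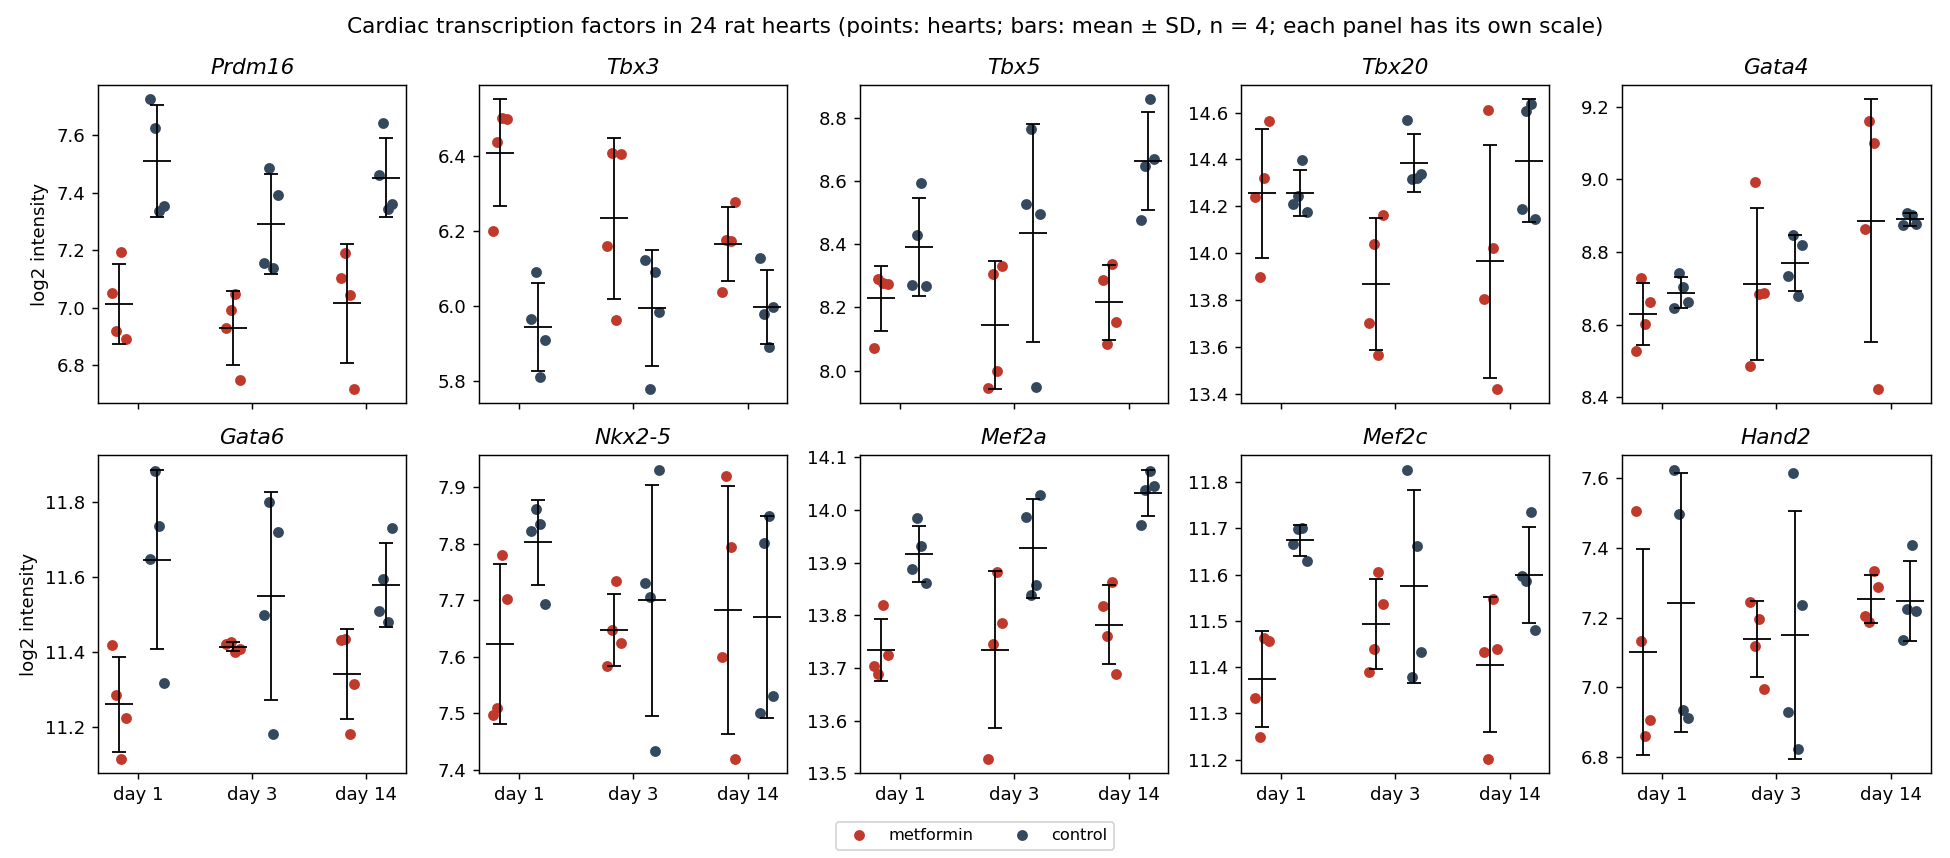
Log2 intensity of each of the 10 genes in every heart, with metformin left of control on each day. Points are hearts and bars are the mean ± SD of 4 hearts, and each panel has its own scale. Prdm16 is separated between the arms on all 3 days and Tbx3 on day 1, while Gata4, Nkx2-5 and Hand2 overlap on every day.

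The other 8 factors were tested. On single days 0 of 8 were called by limma, against 0% of all tested genes on day 1, 0.474% on day 3 and 0.281% on day 14. At an unadjusted p under 0.05 3 of 8 passed for day 1, 3 for day 3 and 4 for day 14, as did 6.72%, 11.2% and 12.7% of all tested genes, and the smallest adjusted p on any day was 0.0997, for Mef2a on day 14. In the mean over days 4 of 8 were called, Mef2a, Tbx5, Gata6 and Mef2c, all of them lower with metformin, and 5 had an unadjusted p under 0.05, as did 18.3% of all tested genes. Of all tested genes 4.42% were called in that comparison, 3.77% lower and 0.649% higher, which is 604 and 104 genes. These 4 calls depended on the scale of the values: after a second quantile normalization or cyclic loess between the arrays 0 of the 4 remained.

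The balance of lower and higher calls among all genes also moved with the scaling. After centring every array at its median there were 878 lower and 25 higher genes, and after the second quantile normalization 265 lower and 119 higher. Centring moved the median difference of all genes on day 14 to -0.12, against -0.02 as deposited. The differences of the members are read beside that shift.

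All 8 had a mean difference over days below 0. The median of the 8 was -0.20, against -0.01 over all tested genes. On single days the median of the 8 was -0.17 for day 1, -0.11 for day 3 and -0.22 for day 14. On these days 8, 8 and 6 of the 8 were below 0, with Tbx20 at -0.002 on day 1. With all tested genes split by mean level into 4 equal bins, the 8 lay in the brightest bin and the next. In the brightest bin 57.0%, 56.9% and 69.6% of genes were below 0 on days 1, 3 and 14. In the next bin the shares were 56.2%, 55.8% and 70.8%. The 6 of 8 on day 14 was thus close to the share among genes as bright. In the mean over days the shares of these bins were 64.8% and 64.4%. Gata4 and Hand2 had differences small enough to change sign between settings: Gata4 was at 0.01 after the second quantile normalization and Hand2 at 0.01 with erythroid markers as a covariate. The means of 6 of the 8 were below 0 on all 3 days, as in 22.0% of all tested genes.

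**Figure D2:**
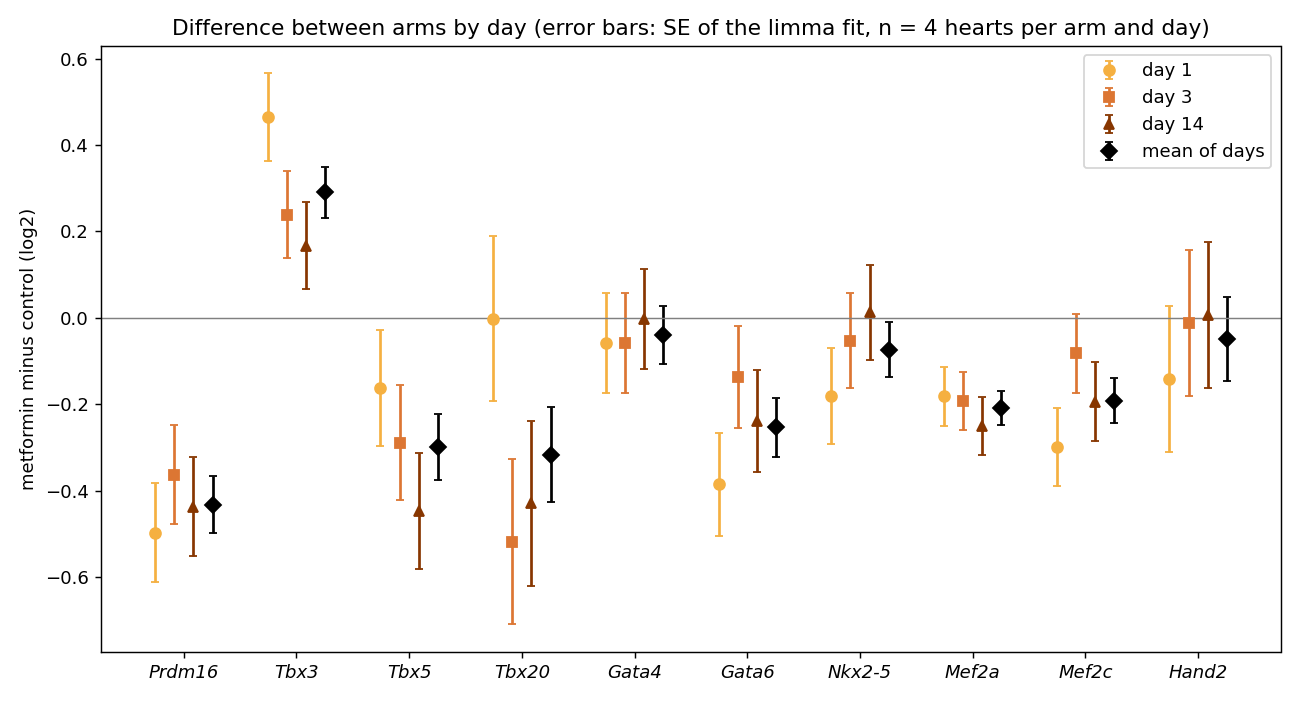
Metformin minus control difference (log2) of the 10 genes on day 1, day 3, day 14 and for the mean of days, with SE bars from the limma fit and 4 hearts per arm and day. Tbx3 is the gene above 0 at every point, Prdm16 lies between -0.50 and -0.36 on the 3 days, and Tbx20 is near 0 on day 1 and below 0 on days 3 and 14.

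Mef2a, a MADS-box factor that binds AT-rich sites near muscle genes, was lower with metformin in the mean over days. On day 1 it stood at 13.70, 13.69, 13.82 and 13.73 in metformin hearts and at 13.89, 13.98, 13.93 and 13.86 in control hearts. On day 3 the values were 13.53, 13.75, 13.88 and 13.78 with metformin and 13.99, 13.84, 13.86 and 14.03 in controls. On day 14 they were 13.82, 13.76, 13.86 and 13.69 with metformin and 13.97, 14.04, 14.07 and 14.05 in controls. The arms were apart on days 1 and 14 and overlapped on day 3. Of the 8 tested factors, 2 had arms apart and lower with metformin on day 1 (Mef2a and Mef2c), 1 on day 3 (Tbx20) and 3 on day 14 (Mef2a, Tbx5 and Gata6). Such genes made up 2.80% of all tested genes on day 1, 4.20% on day 3 and 4.53% on day 14.

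The Mef2a differences were -0.18, -0.19 and -0.25 on days 1, 3 and 14 (SE 0.07 each). In the mean over days Mef2a was lower with metformin by 0.21 (SE 0.04, 95% interval -0.29 to -0.13), or 1.16-fold. Its limma adjusted p was 0.00427. Its 12 metformin hearts averaged 13.75 ± 0.10 and its 12 control hearts 13.96 ± 0.08 (SD). All 12 metformin hearts lay below the control median and 10 lay below every control heart, and how common such counts are among all tested genes was not computed. The call was kept without each of the 24 hearts in turn, and it was lost after the second quantile normalization (-0.17, adjusted p = 0.134) and after cyclic loess (-0.17, adjusted p = 0.098).

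Mef2c, its close relative and in the mouse a factor that the embryonic heart needs for looping, differed most on day 1. The day 1 values were 11.33, 11.25, 11.46 and 11.46 with metformin and 11.67, 11.70, 11.70 and 11.63 in controls, with no overlap. On day 3 the arms overlapped, at 11.39, 11.44, 11.61 and 11.54 with metformin and 11.83, 11.38, 11.66 and 11.43 in controls. On day 14 they overlapped again, at 11.43, 11.20, 11.55 and 11.44 with metformin and 11.60, 11.59, 11.73 and 11.48 in controls. In the mean over days Mef2c was lower with metformin by 0.19 (SE 0.05, 95% interval -0.30 to -0.08), or 1.14-fold. Its limma adjusted p was 0.0395.

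The Mef2c call was near the threshold. It was lost in 14 of the 24 fits that left out 1 heart, with an adjusted p of up to 0.0743, and also after the second quantile normalization (-0.13, adjusted p = 0.334) and cyclic loess (-0.16, 0.158). All 12 metformin hearts were below the control median and 3 were below every control heart. The single-day differences were -0.30, -0.08 and -0.19.

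Tbx5, the T-box activator whose loss in humans causes Holt-Oram syndrome, had its largest difference on day 14. The metformin hearts of day 14 stood at 8.29, 8.08, 8.34 and 8.15 and the control hearts at 8.48, 8.65, 8.86 and 8.67, with no overlap. On day 1 the arms were at 8.07, 8.29, 8.28 and 8.27 with metformin and 8.27, 8.43, 8.59 and 8.27 in controls. On day 3 they were at 7.94, 8.31, 8.00 and 8.33 with metformin and 8.53, 8.76, 7.95 and 8.49 in controls. They overlapped on both earlier days, on day 3 through 1 control heart at 7.95.

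The Tbx5 differences were -0.16, -0.29 and -0.45 on days 1, 3 and 14 (SE 0.13 each). In the mean over days the gene was lower with metformin by 0.30 (SE 0.08, 95% interval -0.46 to -0.14), or 1.23-fold. Its limma adjusted p was 0.0286. A difference between the days was not called by the interaction term. The control hearts of day 14 were 0.27 above those of day 1 (adjusted p = 0.459), and the metformin hearts of day 14 differed from those of day 1 by -0.01. The call over days was lost without any of 5 single hearts: control replicate 3 of day 1 (adjusted p = 0.0535), control replicate 3 of day 14 (0.0554), and metformin replicate 1 of day 1 (0.0509), replicate 1 of day 3 (0.0552) and replicate 2 of day 14 (0.0545). It was also lost after the second quantile normalization, with a difference of -0.26 (adjusted p = 0.0654), and after cyclic loess, again with -0.26 (0.0538).

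Tbx20, a T-box factor that the adult mouse heart needs to keep its contractile function, had the widest spread between hearts. On day 1 it stood at 14.24, 13.90, 14.32 and 14.56 with metformin and at 14.21, 14.24, 14.40 and 14.18 in controls, which overlap fully. On day 3 it stood at 13.70, 14.04, 13.56 and 14.16 with metformin and at 14.57, 14.32, 14.32 and 14.34 in controls, with every metformin heart below every control heart. On day 14 it stood at 13.81, 14.61, 14.02 and 13.42 with metformin and at 14.19, 14.60, 14.64 and 14.15 in controls. Metformin replicate 2 was the one heart of its arm within the control range on day 14.

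The Tbx20 differences were -0.00, -0.52 and -0.43 on days 1, 3 and 14 (SE 0.19 each). The mean over days was -0.32 (SE 0.11, 95% interval -0.55 to -0.09), with a limma adjusted p of 0.111, so Tbx20 was not called. Without metformin replicate 2 of day 14 it was -0.39 with an adjusted p of 0.0237, and after centring every array at its median it was -0.37 with an adjusted p of 0.0489. Within the metformin arm the hearts of day 3 differed from those of day 1 by -0.39 (adjusted p = 0.787) and those of day 14 by -0.29 (0.589).

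Gata6, a zinc-finger factor with a part in hypertrophic growth, was lower in the mean over days. On day 1 it stood at 11.42, 11.28, 11.11 and 11.22 with metformin and at 11.65, 11.88, 11.74 and 11.32 in controls. On day 3 the 4 metformin hearts were nearly equal, at 11.42, 11.43, 11.40 and 11.41, and the control hearts were spread, at 11.50, 11.80, 11.18 and 11.72. On day 14 the values were 11.43, 11.43, 11.18 and 11.31 with metformin and 11.51, 11.59, 11.48 and 11.73 in controls, with no overlap. One control heart fell among or below the metformin hearts on day 1 and on day 3.

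The Gata6 differences were -0.39, -0.14 and -0.24 on days 1, 3 and 14 (SE 0.12 each). In the mean over days the gene was lower with metformin by 0.25 (SE 0.07, 95% interval -0.39 to -0.11), or 1.19-fold. Its limma adjusted p was 0.0361. All 12 metformin hearts were below the control median and 1 was below every control heart. The call was lost in 14 of the 24 fits without 1 heart, with an adjusted p of up to 0.0671, and after the second quantile normalization (-0.19, adjusted p = 0.129) and cyclic loess (-0.22, 0.0806).

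Gata4, the partner of Gata6 in heart muscle and a mediator of the hypertrophic response, was not called. It averaged 8.74 ± 0.24 in metformin hearts and 8.78 ± 0.10 in control hearts (SD, n = 12 each). Its difference over days was -0.04 (SE 0.07, 95% interval -0.18 to 0.10, limma adjusted p = 0.816). On day 1 the hearts were at 8.53, 8.73, 8.60 and 8.66 with metformin and 8.65, 8.74, 8.70 and 8.66 in controls, and on day 3 at 8.49, 8.99, 8.68 and 8.69 with metformin and 8.73, 8.85, 8.68 and 8.82 in controls. The arms overlapped on both days. On day 14 the metformin hearts were spread, at 8.86, 9.16, 9.10 and 8.42, while the control hearts lay close together at 8.87, 8.91, 8.90 and 8.88. Within the metformin arm, day 14 minus day 1 was 0.26 (adjusted p = 0.384), and it was called without replicate 4, the heart at 8.42.

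Nkx2-5, the homeobox factor that marks heart muscle from its first precursors, differed by -0.18 on day 1, -0.05 on day 3 and 0.01 on day 14 (SE 0.11 each). The day 1 hearts were at 7.50, 7.51, 7.78 and 7.70 with metformin and 7.82, 7.86, 7.83 and 7.69 in controls, so that 1 control heart lay inside the metformin range. On day 3 they were at 7.58, 7.65, 7.73 and 7.62 with metformin and 7.73, 7.71, 7.43 and 7.93 in controls. On day 14 they were at 7.60, 7.92, 7.79 and 7.42 with metformin and 7.50, 7.80, 7.85 and 7.53 in controls. The arms overlapped on all 3 days. Over days the difference was -0.07 (SE 0.06, 95% interval -0.21 to 0.06, limma adjusted p = 0.590). Nkx2-5 was not called in any comparison.

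Hand2, a basic helix-loop-helix factor that the mouse embryo needs for its right ventricle and outflow tract, varied widely within groups, with an SD of 0.37 and 0.36 in the control hearts of days 1 and 3. It averaged 7.16 ± 0.18 in metformin hearts and 7.21 ± 0.28 in control hearts (SD, n = 12 each). The difference over days was -0.05 (SE 0.10, 95% interval -0.25 to 0.15, limma adjusted p = 0.844). The day 1 hearts were at 7.51, 7.13, 6.86 and 6.90 with metformin and 7.62, 7.50, 6.93 and 6.91 in controls. The day 3 hearts were at 7.24, 7.12, 7.19 and 7.00 with metformin and 6.93, 7.62, 6.82 and 7.23 in controls. In both control groups 2 hearts were well above the others, and the arms overlapped. The day 14 hearts lay closer together, at 7.20, 7.19, 7.33 and 7.29 with metformin and 7.14, 7.23, 7.41 and 7.22 in controls.

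Days were also compared within each arm, where in metformin hearts a later day also means more doses. In control hearts 0 of 8 were called for day 3 minus day 1, against 0% of all tested genes, and 0 of 8 for day 14 minus day 1, against 0.381%. In metformin hearts 0 of 8 were called for day 3 minus day 1, against 0.0125%, and 0 of 8 for day 14 minus day 1, against 0.405%, though Gata4 passed there without replicate 4 of day 14 (0.41, adjusted p = 0.0451). A treatment difference that changed between days was called in 0 of 8 and in 0% of all tested genes (smallest adjusted p among the 8 of 0.993). At an unadjusted p under 0.05 these 5 comparisons gave 0, 0, 0, 1 and 0 of the 8, and 4.36%, 11.1%, 6.34%, 11.9% and 4.95% of all tested genes. The comparisons between arms and those within an arm share hearts.

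**Figure D3:**
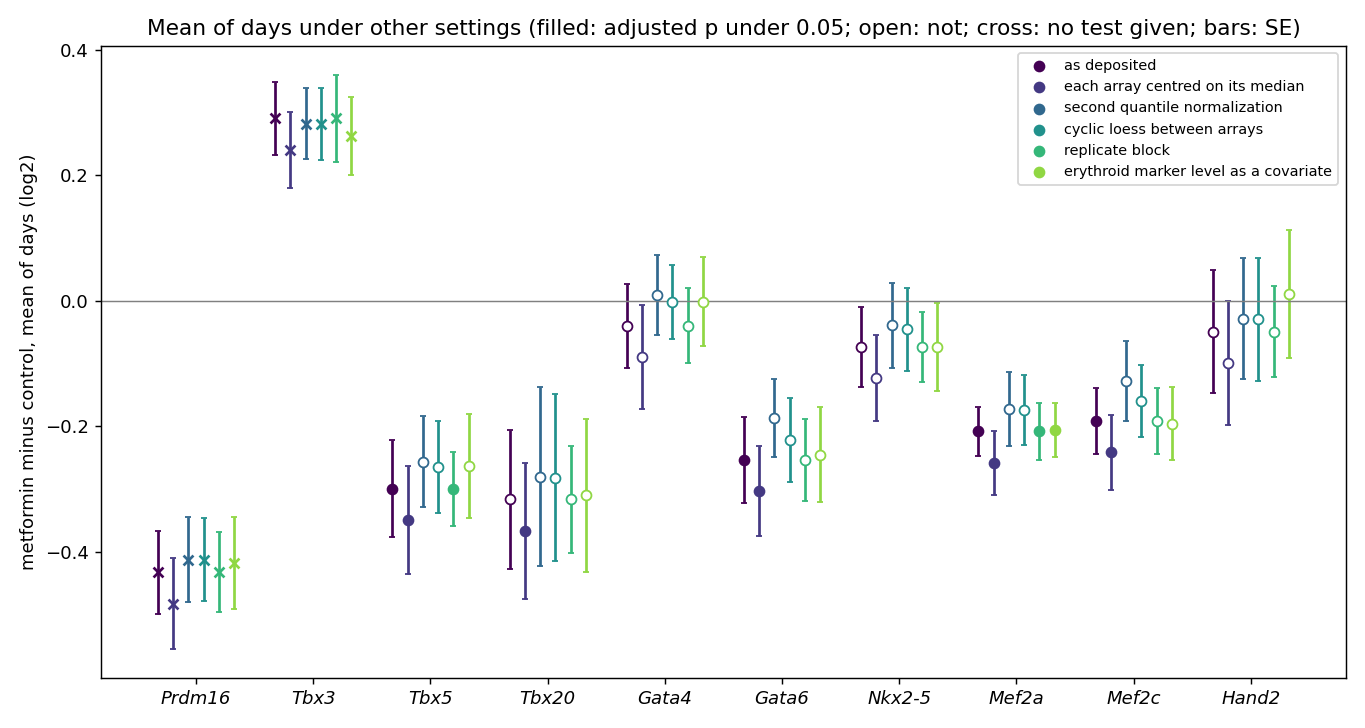
Metformin minus control difference (log2, mean of days, SE bars) of the 10 genes as deposited and under 5 other settings. Filled circles had an adjusted p under 0.05, open circles did not, and crosses mark Prdm16 and Tbx3, for which no test is given. Mef2a is open after both normalizations between arrays, and the called genes stay below 0 throughout.

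Brightness of the genes and levels of other cells' markers were set beside these differences. Split by mean level into 4 equal bins, all tested genes had median differences over days of 0.04, -0.00, -0.03 and -0.03 from the dimmest to the brightest bin, and 0.0749%, 1.55%, 5.12% and 8.33% of them were called lower. The brightest bin holds Tbx20, Gata6, Mef2a and Mef2c, the next Prdm16, Tbx5, Gata4, Nkx2-5 and Hand2, and the next below it Tbx3. After the second quantile normalization the medians of the bins were -0.01, -0.01, 0.00 and 0.02.

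Erythroid markers were lower with metformin in 8 of 8 tested genes, with 0 called and a median difference of -0.55. Their mean level ran from 10.82 to 12.45 in metformin hearts and from 10.33 to 13.58 in control hearts, the highest being control replicate 2 of day 3. On day 1 this level averaged 11.88 with metformin and 12.89 in controls. On day 3 the means were 11.83 and 12.28, with medians of 11.93 and 11.91, and on day 14 the means were 11.66 and 11.65. The gap between arms thus lay mainly on day 1. With that level as a covariate, a setting added after seeing the data, Mef2a was still called, with a difference of -0.21 (adjusted p = 0.0173). Tbx5 (-0.26, 0.102), Gata6 (-0.24, 0.0938) and Mef2c (-0.20, 0.0817) were not called, with differences close to the -0.30, -0.25 and -0.19 without the covariate. Without both control hearts that stood apart, Mef2a (adjusted p = 0.00593), Gata6 (0.0197) and Mef2c (0.0297) were called and Tbx5 was not (-0.28, 0.0502). Epicardial markers were lower in 6 of 6 tested genes, with 0 called, a median of -0.27 and a level of 6.09 to 6.57 in metformin hearts and 6.04 to 7.23 in control hearts. No marker of these lists was at an intensity of 0 on any array, and their part in the differences of the members was not tested.

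Genes around the 10 members were read from 6 lists, where fell and rose mean called lower or higher in the mean over days. The lists were chosen with earlier results of these data known, so their counts and adjusted p values are no independent support. Among 43 tested genes of other cardiac transcription factors and cofactors, 5 fell and 0 rose, against 3.77% called lower and 0.649% called higher among all tested genes. The list median was -0.05, with 32 of the 43 below 0. Myocd, the coactivator of serum response factor in heart and smooth muscle, stood at 10.80 ± 0.25 in metformin hearts and 11.36 ± 0.21 in control hearts (SD, n = 12 each), a difference of -0.56 (SE 0.08, limma adjusted p = 0.000552). The deacetylases Hdac5 (-0.43, adjusted p = 0.00234) and Hdac9 (-0.24, 0.00399), which hold MEF2 proteins in a repressed state, were lower too. So were Ppargc1a, the coactivator of mitochondrial genes (-0.52, 0.0131), and the nuclear receptor Esrrg (-0.20, 0.0419). Myocd, Hdac5, Ppargc1a and Esrrg lay in the brightest bin, where 8.33% of genes were called lower, and Hdac9 in a dimmer one.

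Of 24 tested PRDM family genes and partners of Prdm16, 1 fell and 0 rose, which is near the 3.77% called lower among all tested genes, with a median of -0.04: Smad3, which carries the TGF-beta signal, had a difference of -0.25 (limma adjusted p = 0.00437). Of 13 tested genes that Prdm16 raises in brown fat, 1 rose and 1 fell, against 0.649% called higher and 3.77% called lower among all, with a median of 0.04. These were Cpt1b, the mitochondrial carnitine palmitoyltransferase of muscle (0.18, adjusted p = 0.0405), and Ppargc1a.

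Of 20 tested pacemaker and conduction genes, 1 fell and 0 rose, near the 3.77% called lower among all tested genes, with a median of -0.04. This was Vsnl1, a neuronal calcium sensor also found in the sinus node, with a difference of -0.95 (limma adjusted p = 0.0003). Of 11 tested working-muscle genes that Tbx3 represses in the mouse, 3 fell and 0 rose, with a median of -0.10. Of all tested genes 3.77% were called lower, and 8.33% in the brightest bin. Those that fell were the inward rectifier channels Kcnj2 (-0.49, limma adjusted p = 0.00399) and Kcnj12 (-0.26, 0.0413) and the calcium channel subunit Cacna1c (-0.31, 0.00487). Kcnj2 and Cacna1c lay in the brightest bin and Kcnj12 in a dimmer one.

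Of 38 tested target genes of the core factors, 5 fell and 1 rose, against 3.77% called lower and 0.649% called higher among all tested genes and 8.33% called lower in the brightest bin. The list median was -0.02. The cardiac myosin light chain kinase Mylk3 stood at 15.74 ± 0.15 in metformin hearts and 16.23 ± 0.21 in control hearts (SD, n = 12 each), a difference of -0.49. Corin, the protease that activates natriuretic peptides (-0.53, limma adjusted p = 0.0029), the adrenergic receptor Adra1b (-0.29, 0.0272), Myocd and Cacna1c also fell, and the skeletal actin Acta1 rose (0.74, 0.0229). Most of the 38 were not called, and this list too was chosen with earlier results of these data known. The medians of 5 of the 6 lists lay below the -0.01 of all tested genes. The brightest bin of all tested genes and the next had medians of -0.03. Some lists also share genes, such as Myocd and Cacna1c, so they do not count separately. The median of the core targets was 0.0025 after the second quantile normalization and 0.017 after cyclic loess. The calls of Esrrg, Cpt1b, Kcnj12 and Adra1b were lost after the second quantile normalization. Without both control hearts that stood apart the calls of Esrrg (-0.20, adjusted p = 0.0564), Kcnj12 (-0.27, 0.0558), Adra1b (-0.22, 0.0564) and Acta1 (0.65, 0.0626) were lost. The call of Acta1 was also lost with the erythroid covariate (0.63, 0.0936) and with the replicate block (adjusted p = 0.0770). Leaving out 1 heart lost the calls of Esrrg in 16, Cpt1b in 16, Kcnj12 in 17 and Adra1b in 1 of 24 fits.

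Across the 24 hearts, with group means removed, the levels of the members were compared in 45 pairs by Pearson and Spearman correlation with 100000 permutations within groups. Of these, 0 were called after adjustment over the 45 by either measure, and 7 had an unadjusted p under 0.05 by Pearson. The pair with the smallest permutation p was Nkx2-5 and Mef2a, with r = 0.57 (permutation p = 0.0014, adjusted 0.0616) and rho = 0.64 (adjusted 0.0628). Without the 2 hearts farthest from the Nkx2-5 median r was 0.50. Tbx20 and Nkx2-5 had the largest r, 0.65 (adjusted permutation p = 0.113), which was 0.47 without the 2 farthest hearts.

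Negative pairs were fewer, since 33 of the 45 correlations were positive and the median r was 0.17. Gata6 and Mef2c had r = -0.50 and rho = -0.68 (adjusted permutation p for rho 0.0628), and r was -0.64 within metformin hearts and -0.47 within control hearts. Tbx3 had r = -0.27 with Prdm16 and -0.40 with Hand2. All genes of a heart were read on the same array and share its overall brightness, and after the second quantile normalization 4 pairs were called: Tbx20 with Nkx2-5, Tbx20 with Mef2a, Gata4 with Nkx2-5 and Nkx2-5 with Mef2a.

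**Figure D4:**
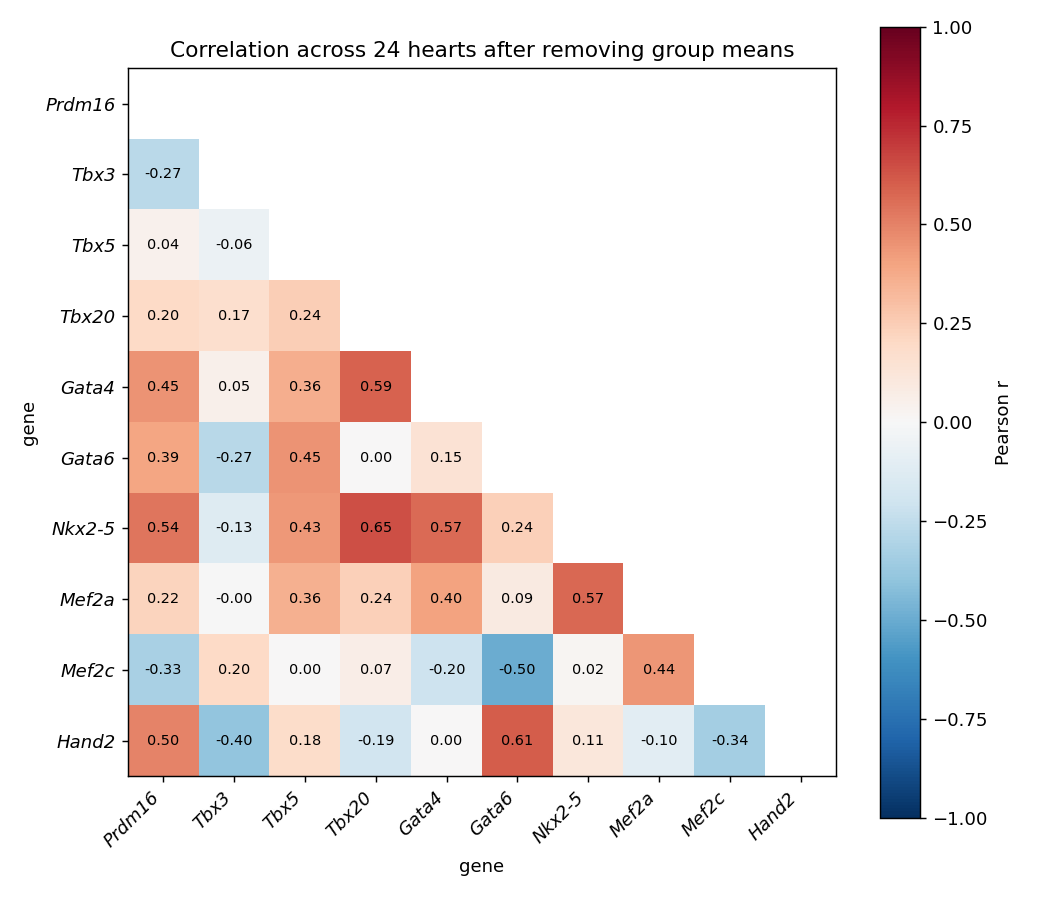
Pearson correlation of each pair of the 10 genes across 24 hearts after removing the mean of each group of 4, with r printed in each cell and coloured from -1 to 1. Nkx2-5 has its highest values with Tbx20 (0.65), Gata4 (0.57) and Mef2a (0.57), and Gata6 with Mef2c is the lowest at -0.50.

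The genes most like Prdm16 over the 24 arrays, by Pearson's r among all tested genes, were Cux1 (0.87), Nr3c2 (0.85), Gtf3c1 (0.83), S100a1 (0.83) and Boc (0.83). For Tbx3 they were Ppef2 (0.73), Sox7 (0.70), P4ha1 (0.70), P3h2 (0.70) and Xylb (0.70). These values are a description, since the arrays share the treatment, and Spearman's rho ran from 0.81 to 0.83 for the first 5 and from 0.59 to 0.72 for the second. With group means removed r was 0.80 for Cux1 and 0.54 for Nr3c2 with Prdm16, and 0.65 for Ppef2 and 0.59 for Sox7 with Tbx3. Nr3c2 is the mineralocorticoid receptor and differed between arms by -0.39 over days. Sox7, a transcription factor of endothelium, differed by 0.35.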

How the data were processed

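Heart RNA from 24 rats was measured on 1-colour arrays. The deposited intensity values are linear, 1 per array and transcript cluster, and were normalized by the authors; RMA is named per the submitters' processing notes, with settings not given in the sources used here. Since log2 values had been planned for, log2 was taken of the deposited intensity first. Of 68842 clusters, 23446 had 1 gene symbol in the platform annotation. A gene was represented by its brightest single-symbol cluster and tested if above the array median on at least 4 arrays. Groups came from the sample titles.

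Differences were fitted with limma 3.58.1 in R 4.3.3 and adjusted by Benjamini-Hochberg over 16031 genes. On simulated data a 1.25-fold change was recovered in 34% of genes on day 1, 38% on day 3 and 26% on day 14. In the mean of days it was 72%. The simulation drew independent noise for each gene and changed 200 genes, 50 at each fold size from 1.25 to 3. In the measured values 0 of 16031 genes were called on day 1, so these recovery shares need not hold for these hearts. Correlations and motif searches were run in Python 3.11.15. The members, lists and tests were chosen with earlier results of these data known. From the lists, genes called in the mean of days were named. The number of arrays limits the precision.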

Additional observations from a re-analysis of the deposited data

Results flagged for a closer look

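Each of the 10 genes was examined for a lone heart in its 6 groups of 4, which is 60 groups, and 2 were found where chance alone picks about 1 in 20 groups. Tbx5 in metformin replicate 1 of day 1 was at 8.07, while the other hearts of that group lay between 8.27 and 8.29. Tbx20 in control replicate 1 of day 3 was at 14.57, while the other hearts of that group lay between 14.32 and 14.34.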

How the results depend on the processing

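The number of the 8 tested factors called over days, 4 as deposited, was 0 after a second quantile normalization or cyclic loess, 2 without the filter on dim genes, 1 with the erythroid covariate, and 1 to 4 without single hearts. Same-numbered hearts deviated together with correlations from -0.148 to 0.110. This check showed no pairing of the animals by number, though with 4 hearts per group it cannot establish that there is none. With the replicate number as a block 2 factors were called, Mef2a and Tbx5. Gata4 in metformin hearts, day 14 minus day 1, gave 0 to 1 calls without single hearts. The count of called genes over days ran from 364 to 903 against 708, on day 3 from 3 to 144 against 76 and on day 14 from 0 to 191 against 45; for day 14 minus day 1 it ran from 2 to 78 against 65 in metformin hearts and from 1 to 199 against 61 in control hearts. Called pairs among the correlations were 4 after quantile normalization, 3 after cyclic loess, 1 without the day 1 controls and 2 without the day 14 metformin hearts. With arrays centred on their medians, list medians were -0.10 for other cardiac factors, -0.093 for the PRDM list and -0.011 for the brown-fat list, and that of the core targets was 0.0025 after quantile normalization and 0.017 after loess. Of the 15 list genes named, 10 were called under every alternative; Esrrg, Cpt1b, Kcnj12, Acta1 and Adra1b were not.

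Of the single genes, those whose difference changed sign were uncalled. Tbx20 on day 1 was 0.088 after quantile normalization, 0.090 after loess, 0.041 with array weights, 0.011 with the erythroid covariate and -0.11 to 0.12 without single hearts. Gata4 was 0.021 on day 1 with the covariate, 0.075 on day 14 after quantile normalization, 0.066 after loess and 0.065 with array weights, and 0.0095 over days after quantile normalization; without single hearts it ran from -0.15 to 0.018 on day 3, -0.094 to 0.15 on day 14 and -0.071 to 0.012 over days. Hand2 on day 3 was 0.061 with array weights, 0.044 with the covariate and 0.14 without both control hearts that stood apart, on day 14 -0.094 with centring and -0.023 with array weights, and over days 0.011 with the covariate; without single hearts it ran from -0.12 to 0.14 on day 3, -0.031 to 0.060 on day 14 and -0.094 to 0.0027 over days. Nkx2-5 on day 14 was -0.087 with centring, and without single hearts it ran from -0.14 to 0.024 on day 3 and -0.066 to 0.10 on day 14. Mef2c on day 3 ran from -0.15 to 0.0022 without single hearts. The causes were not tested. A second cluster per gene could not be tried, since each member had 1. The erythroid covariate and the joint removal of 2 hearts were chosen after seeing the data.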
